A study of Mus musculus with 8 samples.

Results

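The p53 pathway and the DNA damage response were followed in cultured neural stem and progenitor cells of the fetal mouse brain, with and without the histone acetyltransferase gene Kat7 (also called HBO1). The 39 genes were taken by symbol from a named list and fell into 2 blocks, Trp53 with 23 of its established or reported targets (24 genes) and 15 checkpoint or DNA repair genes. All 39 were found among the 27179 genes counted, and all 39 passed the filter on low counts that left 13498 genes for testing. RNA was sequenced from 8 neurosphere cultures (floating clusters of dividing neural precursors), each isolated from a single C57BL/6 fetus at E14.5. In 4 cultures both Kat7 alleles were floxed and cut by a Cre recombinase transgene under Nestin control, which acts in neural precursors (Kat7lox/lox NesCreT/+, the Kat7 deleted group). The other 4 carried the same transgene with wild-type Kat7 (Kat7+/+ NesCreT/+, the Kat7 intact group), so every culture held the Cre transgene, while floxed alleles were present in the deleted group alone. Each group came from 3 litters, and because none of the 6 litters gave fetuses of both groups, effects of genotype and of litter cannot be told apart. Intact replicates 1 and 2 shared a litter, and deleted replicates 3 and 4 shared another.

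The protein p53 is a transcription factor that is normally kept low by the ubiquitin ligase MDM2 and accumulates when DNA is damaged or the cell is stressed. It binds DNA as a tetramer on paired 10-base motifs and induces genes that stop the cell cycle, repair DNA, restrain mTOR signalling or start cell death. Upstream of it, the kinases ATM and ATR sense broken DNA and stalled replication forks and act through CHEK2 and CHEK1, while mediator, recombination and Fanconi anaemia proteins hold and repair the lesion. Many checkpoint and repair genes are transcribed mostly in dividing cells, from promoters bound by E2F factors. In the developing brain p53 is known for removing damaged neural progenitors.

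Library totals ran from 10687817 to 22444359 counts. Kat7 stood at 77.1 to 92.1 CPM (depth-scaled counts, normalised by the trimmed mean of M-values, TMM) in the intact libraries. Deleted replicates 1 to 4 held 26.4, 0.367, 13.9 and 0.0870 CPM of Kat7, so deleted replicates 1 and 3 kept 31.4% and 16.5% of the intact mean. With this spread Kat7 itself was not called by edgeR (log2 fold change -3.02 ± 1.10, adjusted p = 0.128), and it passed in 3 of 22 settings, with adjusted p from 0.000113 to 0.276 over the alternatives. The labels name proliferating cells of the neural stem and progenitor type, and Nes, Vim, Fabp7 and Sox2 were present in all 8 libraries (Nes at 831 to 2040 CPM). Deleted libraries differed from each other more than intact ones did. For 37 of the 39 genes the SD over 4 libraries was larger in the deleted group. Mitochondrial transcripts took 18.95% to 23.5% of each intact library, against 29.9%, 18.95%, 17.1% and 34.4% of deleted replicates 1 to 4. The summed level of 10 astrocyte markers was 346 to 573 CPM in intact libraries and 5293, 536, 1966 and 1678 CPM in those deleted libraries, and its part in the levels below was not tested. Of these markers 5 were called higher and 0 lower (median log2 fold change 2.48), against 5.10% and 2.80% of all genes tested. The corresponding sums for 8 microglia and blood and 7 endothelial markers stayed at or under 15.8 CPM in every library, with C1qa at 0 throughout. Neuron markers summed to 115 to 145 CPM in intact libraries and 55.9, 164, 95.1 and 200.4 CPM in deleted replicates 1 to 4. Neurod1 and Elavl3 were called lower (log2 fold change -3.32 and -2.27), Dcx reached 100.6 CPM in deleted replicate 2 alone, and Stmn2 was at or near 0 in all libraries. Oligodendrocyte lineage markers summed to 112 to 180.5 CPM in intact and 107 to 145 CPM in deleted libraries, with Gpr17 and Ugt8a called lower (-3.21 and -4.17). The part of these lineages in the levels of the 39 genes was not tested.

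Promoter sequences of both blocks were searched for p53 and E2F motifs. The RefSeq table (GRCm38.p6) held promoters for 31 of the 39 genes, 37 starts in all, and the 250 bases before each start were searched. Trp53inp1, Zmat3, Tnfrsf10b, Xpc, Ddb2, Rrm2b, Fancd2 and Exo1 had no entry. The p53 decamer (the p53 consensus unit of 10 bases, which reads alike on both strands) was found without mismatch before a start of 9 of 18 genes of the p53 block and 0 of 13 checkpoint or repair genes, against 8.20% of all 27025 genes in the table. A full p53 element, taken as 2 decamers with at most 1 base between them and at most 1 mismatch outside their fixed C and G, stood before 2 of the 18 genes, Cdkn1a and Ccng1, and 0.104% of all genes. Decamers inside an element were counted in both searches. Promoters were not matched for base composition, and a match describes letters, not binding.

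Cdkn1a encodes p21, the inhibitor of cyclin-dependent kinases, and Ccng1 encodes cyclin G1. They are shown because they alone among the 31 genes hold a full element. The capitals mark p53 elements and decamers, and each line runs 5′ to 3′ and ends at the base before a RefSeq start.
Cdkn1a (chr17:29090729-29090978, plus strand, element 51 to 32 bases before the start): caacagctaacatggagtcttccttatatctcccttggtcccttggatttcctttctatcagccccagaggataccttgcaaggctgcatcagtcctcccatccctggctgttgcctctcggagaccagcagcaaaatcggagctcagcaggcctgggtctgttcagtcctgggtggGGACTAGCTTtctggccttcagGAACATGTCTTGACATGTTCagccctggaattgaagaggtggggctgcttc
Ccng1 (chr11:40755287-40755536, minus strand, element 195 to 176 bases before the start): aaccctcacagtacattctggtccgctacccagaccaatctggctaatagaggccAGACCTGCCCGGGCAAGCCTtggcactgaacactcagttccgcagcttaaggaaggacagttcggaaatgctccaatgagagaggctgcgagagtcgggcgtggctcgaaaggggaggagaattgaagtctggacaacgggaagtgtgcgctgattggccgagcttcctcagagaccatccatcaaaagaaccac
The Cdkn1a element lies before the upstream of 2 RefSeq starts, and the other start is 2790 bases downstream with no match in its own window.

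The decamers of the other 7 genes are shown with 10 flanking bases on each side, because they include both called higher members of the block and 1 of the 3 called lower.
Sesn1 (chr10:41887256-41887285, plus strand, 173 bases before an internal start): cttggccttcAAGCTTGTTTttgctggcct
Ddit4l (chr3:137623572-137623601, plus strand, 90 bases before the start): caactcccagGGGCTTGCCTgggcccctgc
Aen (chr7:78895927-78895956, plus strand, 121 bases before an internal start): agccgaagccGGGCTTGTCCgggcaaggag
Gadd45a (chr6:67037428-67037457, minus strand, 40 bases before the start): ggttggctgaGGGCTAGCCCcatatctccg
Mdm2 (chr10:117710925-117710954, minus strand, 186 bases before the start): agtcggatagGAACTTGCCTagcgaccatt
Trp53 (chr11:69580274-69580303, plus strand, 75 bases before the start): acccacggaaGGACTTGCCCttacttgtta
Polk (chr13:96519399-96519428, minus strand, 231 bases before an internal start): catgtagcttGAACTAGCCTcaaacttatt
Of the 9 genes with a decamer, 2 were called higher in deleted cultures (Sesn1 and Ddit4l), 1 was called lower (Aen) and 6 were not called, against 5.10% higher and 2.80% lower over all genes tested.

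In the checkpoint and repair block the E2F motif, searched on both strands as TTTCCCGC or TTTGGCGC, stood before 3 of 13 genes, against 0 of 18 in the p53 block and 1.51% of all genes. These sites are shown as the counterpart of the decamers, with the E2F match in capitals and up to 10 flanking bases. For Chek2 and Brca2 the start named below is an internal start. Their annotated genes begin at 110839800 and 150522297, so both sites lie inside the genes.
Chek2 (chr5:110839821-110839848, plus strand, 152 bases before the start): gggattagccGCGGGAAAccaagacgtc
Brca2 (chr5:150522443-150522470, plus strand, 168 bases before the start): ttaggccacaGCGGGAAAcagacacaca
Mdc1 (chr17:35841472-35841497, plus strand, 16 bases before the start): cttcagcctgTTTCCCGCcggtagcc
None of these 3 genes was called. Chek1, the checkpoint gene that was called, had neither motif in its window.

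The comparison of Kat7 deleted with Kat7 intact cultures asks how loss of this acetyltransferase changes gene expression in neural precursors. Deleted cultures showed no joint rise of the p53 block. Sesn1 and Ddit4l rose, the p53 targets Eda2r, Aen and Trp53inp1 fell, and neither Trp53 nor its textbook targets Cdkn1a and Mdm2 passed the test. Among checkpoint and repair genes the kinase gene Chek1 fell 1.70-fold and the other 14 were not called. In the p53 block 2 of 24 genes were called higher and 3 lower, with a median log2 fold change (deleted minus intact) of -0.08. Over all genes tested 5.10% were called higher and 2.80% lower (7.90% in either direction), and the median was 0.05. In the checkpoint and repair block 0 of 15 were called higher and 1 lower, with a median of -0.27. By DESeq2 and by limma-voom 0 were higher and 1 lower, and at an unadjusted p under 0.05 there were 0 and 4. For the p53 block the counts were 4 higher and 3 lower by DESeq2, 1 and 3 by limma-voom, and 6 and 3 at an unadjusted p under 0.05. The same rules took 8.63% and 5.80% of all genes by DESeq2, 4.38% and 3.49% by limma-voom, and 15.8% and 10.4% unadjusted. Fitted fold changes were below 0 for 13 of 24 and 12 of 15 genes, against 45.0% of all genes.

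Calls rest on edgeR's quasi-likelihood test over all 13498 genes with a Benjamini-Hochberg adjusted p under 0.05, and the adjusted p-values below come from it unless another tool is named. Errors beside a mean CPM are SDs over 4 libraries, and those beside a log2 fold change are approximate standard errors from the same test. All 6 calls were lost whichever of the 4 intact libraries was left out, with adjusted p of 0.0569 to 0.124. That test treats littermates as independent. With litter as a random block in limma the calls of Sesn1 and Eda2r held (adjusted p = 0.0495 and 0.0443) and those of Ddit4l, Aen, Trp53inp1 and Chek1 did not (0.0507 to 0.127), and with littermates summed 0 of the 6 held (0.0745 to 0.109). Over the whole table the fits without an intact library called 189 to 261 genes instead of 1066, and no fold change of the 6 genes changed sign in any of the 21 alternatives.

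**Figure D1:**
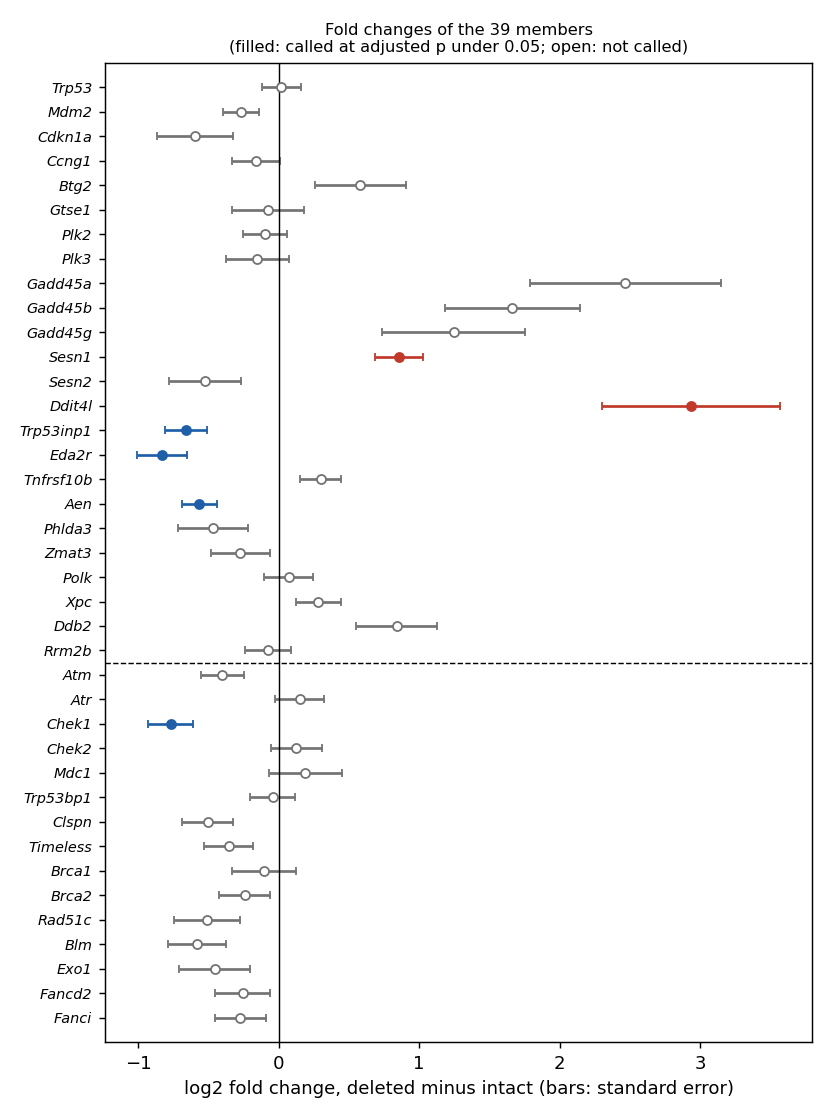
Log2 fold change of each of the 39 genes, deleted minus intact (horizontal axis; points, estimates; bars, standard errors; filled points, called), with the p53 block above the dashed line and the checkpoint and repair block below it. The p53 block spreads to both sides of 0, from -0.83 (Eda2r) to 2.94 (Ddit4l), while 12 of 15 checkpoint and repair genes lie below 0.

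Trp53 itself (Entrez 22059, chromosome 11, 69580348 to 69591873 in GRCm38) averaged 46.9 ± 3.24 CPM in intact and 47.5 ± 7.73 CPM in deleted cultures. Intact libraries held 47.7, 48.7, 42.1 and 49.0 CPM, and deleted replicates 1 to 4 held 36.6, 51.0, 54.5 and 47.8 CPM. Deleted replicate 1 was the lowest of the 8 libraries and deleted replicate 3 the highest, so the genotypes overlapped. The log2 fold change was 0.02 ± 0.14 (adjusted p = 0.948) and turned negative in 8 of 21 alternatives. The transcript level does not show the amount or activity of the protein, which is set largely by its degradation.

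Mdm2, the ubiquitin ligase gene that p53 induces in a feedback loop, stood at 152, 147, 142 and 154 CPM in intact and at 106, 113, 125 and 149.6 CPM in deleted libraries. Deleted replicates 1 to 3 lay below all intact libraries and deleted replicate 4 within them. The log2 fold change was -0.27 ± 0.13 (adjusted p = 0.226).

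Cdkn1a, whose product arrests the cell cycle and whose promoter carries the full p53 element shown above, was not called either. It stood at 287, 337, 325 and 290.2 CPM in intact libraries. In deleted replicates 1 to 4 it stood at 169.8, 117, 318 and 215 CPM. Deleted replicate 3 lay inside the intact range and the other 3 below it. The mean went from 309.8 ± 25.0 to 205 ± 85.3 CPM, a log2 fold change of -0.60 ± 0.27 with an adjusted p of 0.204. Without deleted replicates 1 and 3, the libraries that kept Kat7 reads, it was -0.90 ± 0.25 with an adjusted p of 0.0474. That was its single pass in 22 settings. An opposite-strand transcript overlaps 273 of its 2718 exon bases.

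Ccng1, Plk2 and Cdkn1a were the 3 most abundant genes of the block per length, at 281, 164 and 153 CPM per kilobase in intact cultures. Ccng1, which holds the other full element, stood at 918, 1041, 1184 and 776 CPM in intact and at 839, 796, 889 and 983 CPM in deleted libraries, all 4 deleted values within the intact range (log2 fold change -0.16 ± 0.17, adjusted p = 0.584). Plk2, a polo-like kinase of centriole duplication and stress, stood at 465, 518, 410.2 and 442 CPM in intact and at 387, 509, 465 and 355 CPM in deleted libraries (-0.10 ± 0.16, adjusted p = 0.738). Its genotypes overlapped, with deleted replicates 1 and 4 lowest. Plk3, a related kinase, was low at 10.5 ± 1.29 and 9.46 ± 2.48 CPM (adjusted p = 0.708).

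Btg2 and Gtse1 were the cell-cycle targets whose SD was larger in the deleted than in the intact group by over 5 times. Btg2, an antiproliferative gene that marks neural progenitors about to divide into neurons, stood at 52.1, 58.0, 41.6 and 51.5 CPM in intact and at 35.9, 69.5, 74.2 and 125 CPM in deleted libraries. Deleted replicate 1 lay below the intact range and the other 3 above it (log2 fold change 0.58 ± 0.32, adjusted p = 0.286). Without deleted replicate 1 Btg2 was called, at 0.82 ± 0.22 (adjusted p = 0.0455). Gtse1, a G2 and S phase gene whose product restrains p53, stood at 105.3, 97.1, 103 and 105.3 CPM in intact and at 52.6, 92.8, 143 and 102 CPM in deleted libraries. Its SD was 9.51 times larger in the deleted group, and the log2 fold change was -0.07 ± 0.25 (adjusted p = 0.878). By the edgeR test 0 of the 6 cell-cycle targets were called, and 0 at an unadjusted p under 0.05, by DESeq2 or by limma-voom. Over all genes tested edgeR called 5.10% higher and 2.80% lower, and 15.8% and 10.4% passed unadjusted. The shares were 8.63% and 5.80% by DESeq2 and 4.38% and 3.49% by limma-voom.

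**Figure D2:**
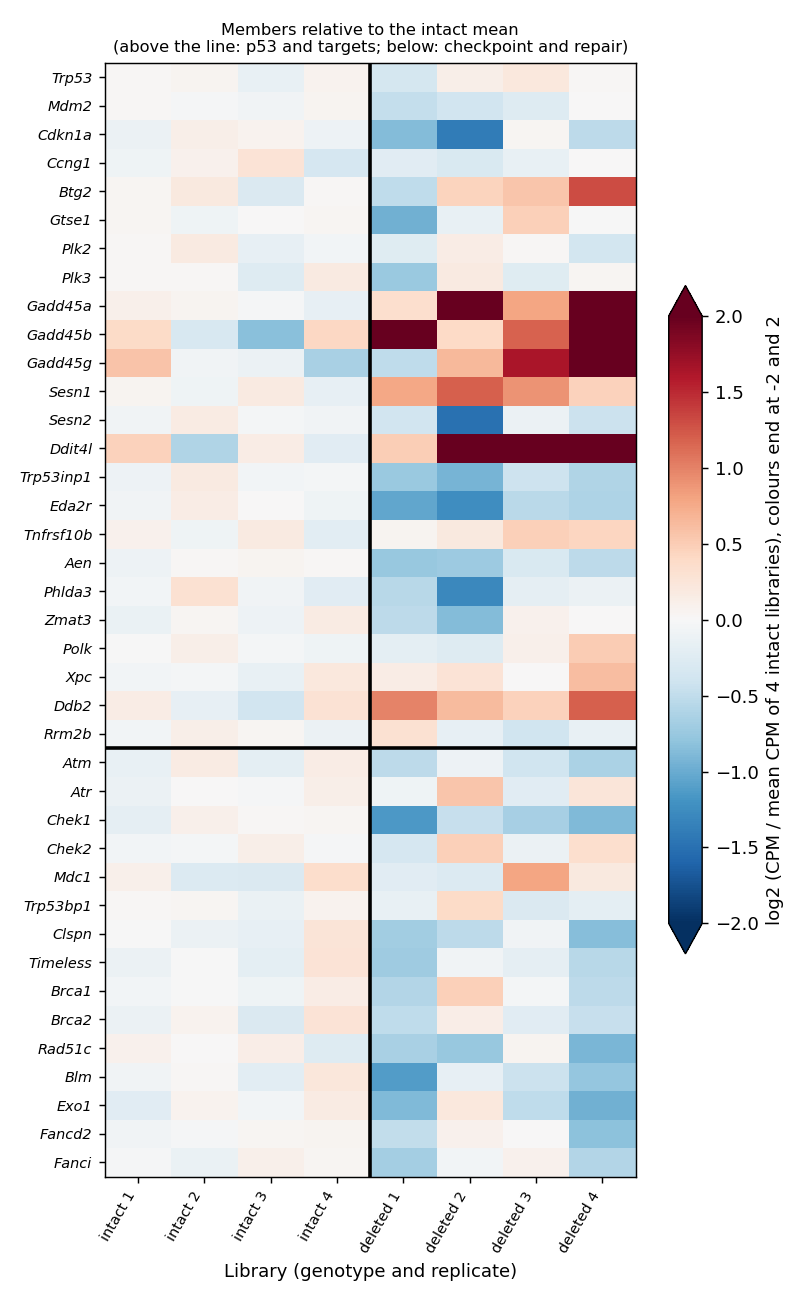
Colour map of the 39 genes (rows) in the 8 libraries (columns), as log2 of the CPM over the mean of the 4 intact libraries, with red above and blue below that mean. Intact columns are pale for most genes, less so for Gadd45b, Gadd45g and Ddit4l. Deleted replicates 1 and 4 are blue over most checkpoint and repair genes, and Gadd45a, Gadd45b, Gadd45g and Ddit4l hold the strongest red.

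The stress and mTOR targets split in direction. Sesn1 (Entrez 140742, chromosome 10, 41810574 to 41908436) encodes sestrin 1, a p53-induced inhibitor of mTORC1. It stood at 29.7, 26.9, 32.2 and 25.3 CPM in intact and at 48.6, 65.5, 53.3 and 39.3 CPM in deleted libraries. No deleted library reached down to the intact range, and deleted replicate 2 was the highest. Sesn1 rose 1.81-fold, from 28.5 ± 3.06 to 51.7 ± 10.9 CPM (log2 fold change 0.86 ± 0.17, adjusted p = 0.0225). It was called in 15 of 22 settings and kept its call with any 1 deleted library left out. Apart from the intact libraries and the summed littermates, the call also ended with total-count scaling.

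Sesn2, its paralogue, which is also induced by amino acid shortage, lay in the other direction and was not called. Intact libraries held 116, 135, 117 and 116 CPM and deleted replicates 1 to 4 held 92.8, 42.8, 111 and 90.1 CPM. All deleted libraries lay below all intact ones, deleted replicate 3 by the smallest margin and deleted replicate 2 by the largest. The log2 fold change was -0.52 ± 0.25 (adjusted p = 0.231), and Sesn2 was called in 0 of 22 settings. Within a library the ratio of Sesn1 to Sesn2 per length needs no scaling. It was 0.205, 0.158, 0.219 and 0.174 in the intact group and 0.417, 1.22, 0.381 and 0.347 in the deleted group, so every deleted library held relatively more Sesn1. The pair was chosen after its values were seen, and the ratio was not tested.

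Ddit4l (Entrez 73284, chromosome 3, 137623672 to 137628332), also called REDD2, encodes a further inhibitor of mTOR signalling. It showed the largest change of the 39 genes. It stood at 17.8, 8.55, 14.3 and 11.0 CPM in intact and at 18.2, 81.6, 90.5 and 205 CPM in deleted libraries. Deleted replicate 1 was barely above intact replicate 1, and the other 3 were far above every intact library. Ddit4l rose 7.65-fold, from 12.9 ± 4.02 to 98.8 ± 77.7 CPM (log2 fold change 2.94 ± 0.63, adjusted p = 0.0317). Without deleted replicate 4 the value was 2.30. Apart from the intact libraries, the call also ended without deleted replicate 3, with litter as a random block, by limma-voom and without a filter on low counts, and it was made in 12 of 22 settings.

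Trp53inp1 (Entrez 60599, chromosome 4, 11156441 to 11174379) encodes a stress-induced protein of p53 signalling and autophagy. Intact libraries held 543, 661, 561 and 564 CPM and deleted libraries 348, 307, 436 and 385 CPM. The groups did not overlap. Trp53inp1 fell 1.58-fold, from 582 ± 53.3 to 369 ± 55.0 CPM (log2 fold change -0.66 ± 0.15, adjusted p = 0.0364). The SD of the deleted group was 1.03 times that of the intact group, the closest to equal in the p53 block. Its call also ended without deleted replicate 4, with litter as a random block and without the deleted libraries of high mitochondrial share, and was made in 13 of 22 settings.

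Among death-related and RNA-binding targets 2 of 5 fell and 0 rose, also at an unadjusted p under 0.05, by DESeq2 and by limma-voom. Of all genes tested 2.80% were called lower, 10.4% unadjusted, 5.80% by DESeq2 and 3.49% by limma-voom. Groups of targets by role were put together by hand, and their counts were not tested. Eda2r (Entrez 245527, chromosome X, 97333837 to 97377234) encodes the ectodysplasin A2 receptor, a p53-induced member of the tumour necrosis factor receptor family. It stood at 279.8, 327, 295 and 277 CPM in intact and at 143, 124, 203 and 192 CPM in deleted libraries, with no overlap. Eda2r fell 1.78-fold, from 295 ± 22.6 to 166 ± 38.0 CPM (log2 fold change -0.83 ± 0.18, adjusted p = 0.0288). It was called in 16 of 22 settings, more than any other of the 39 genes.

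Aen (Entrez 68048, chromosome 7, 78895927 to 78911209) encodes an exonuclease that p53 induces during apoptosis. It stood at 102, 112, 114 and 112 CPM in intact and at 65.4, 66.7, 89.2 and 76.4 CPM in deleted libraries. No deleted library reached the lowest intact one. Aen fell 1.48-fold, from 110.1 ± 5.34 to 74.5 ± 11.0 CPM (log2 fold change -0.56 ± 0.13, adjusted p = 0.034). Its call also ended without deleted replicate 4, with litter as a random block, with total-count scaling and without the deleted libraries of high mitochondrial share, and was made in 12 of 22 settings. Neither Phlda3, an inhibitor of AKT signalling, nor Zmat3, an RNA-binding regulator of splicing, was called (95.1 ± 15.4 against 68.8 ± 22.3 CPM and 93.8 ± 9.16 against 77.7 ± 23.3 CPM, adjusted p = 0.264 and 0.446). The death receptor gene Tnfrsf10b was low at 19.5 ± 2.36 and 24.0 ± 3.24 CPM, with 3 of 4 deleted libraries above the intact range (adjusted p = 0.229).

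**Figure D3:**
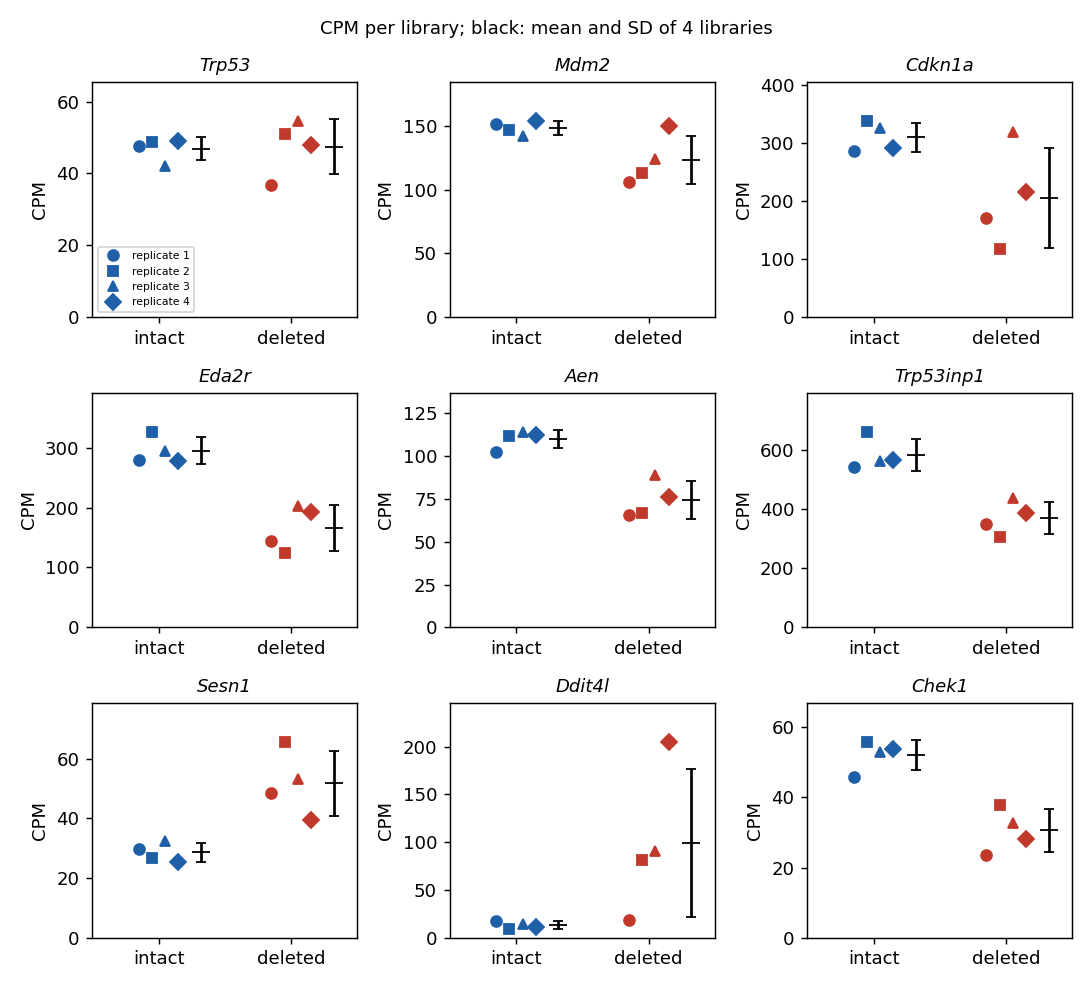
CPM of 9 genes in each library (vertical axes start at 0), intact in blue and deleted in red, with the mean and SD of 4 libraries in black; marker shapes give the replicate number and do not pair the genotypes. Eda2r, Aen, Trp53inp1 and Chek1 lie lower in every deleted library and Sesn1 higher, whereas Trp53, Mdm2 and Cdkn1a overlap between genotypes.

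The GADD45 genes encode small stress sensors that activate p38 and JNK signalling and bind cell-cycle and repair proteins. All 3 lay higher on average in deleted cultures, and each passed at an unadjusted p under 0.05 but not after adjustment. Of all genes tested 15.8% were higher at that unadjusted threshold. Gadd45a, the classical p53 target of the family, stood at 12.8, 12.4, 11.7 and 10.6 CPM in intact and at 14.96, 149.6, 20.6 and 78.1 CPM in deleted libraries. The genotypes did not overlap, but deleted replicates 2 and 4 stood far above deleted replicates 1 and 3. The log2 fold change was 2.47 ± 0.68 (adjusted p = 0.0608), and the SD was 66.1 times larger in the deleted group. Gadd45a was called in 5 of 22 settings, at 3.26 ± 0.24 (adjusted p = 0.000472) when the deleted libraries with Kat7 reads were left out and at 2.44 ± 0.60 (0.00114) by DESeq2. The libraries left out there are the 2 with low Gadd45a. Of its exon bases 19.5% overlap an opposite-strand transcript, E230016M11Rik.

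Mesenchymal marker genes were high in the same libraries as Gadd45a. Of the 9 listed, 3 passed the filter on low counts and 2 were called higher, against 5.10% of all genes tested. The summed level of the 9 listed genes was 3.03 to 4.37 CPM in intact libraries and 5.71, 783, 22.6 and 242 CPM in deleted replicates 1 to 4. Acta2 and Thbs2 made up most of it in deleted replicate 4, and Col3a1, Acta2, Thbs2 and Dcn in deleted replicate 2, while Col1a1 stayed at or under 1.56 CPM and Lum was at 0 in all deleted libraries. The part of these cells or genes in the level of Gadd45a was not tested. In bulk RNA, a change in the share of a cell type and a change in RNA per cell cannot be told apart.

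Gadd45g stood at 23.4, 15.1, 14.53 and 10.1 CPM in intact and at 11.1, 24.8, 49.0 and 64.8 CPM in deleted libraries (log2 fold change 1.25 ± 0.51, adjusted p = 0.163). Deleted replicate 1 lay inside the intact range, and without it Gadd45g was called (1.55 ± 0.37, adjusted p = 0.034). Gadd45b was scarce, at 1.04 ± 0.397 and 3.31 ± 1.71 CPM, with 12 to 73 reads a library (1.66 ± 0.48, adjusted p = 0.0679). It was called by DESeq2 (adjusted p = 0.0115), by limma-voom with sample weights (0.0371) and without deleted replicate 2 (0.0231). Of the 3 family members DESeq2 called 2 higher, against 8.63% of all genes.

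Repair genes that p53 induces were not called. Ddb2, the damaged DNA binding protein of nucleotide excision repair, was the only one without overlap, at 1.78, 1.44, 1.22 and 1.96 CPM in intact and at 3.17, 2.48, 2.20 and 3.65 CPM in deleted libraries (log2 fold change 0.84 ± 0.29, adjusted p = 0.111). It shares 26.7% of its exon bases with Acp2 on the opposite strand, and the strand setting of the counting is not given in the sources used here, so reads of the pair cannot be separated. Xpc, which recognises the lesion in the same pathway, stood at 20.6 ± 2.29 and 25.0 ± 4.70 CPM (adjusted p = 0.296). Polk, a translesion polymerase, stood at 35.0 ± 2.06 and 36.7 ± 9.30 CPM, and Rrm2b, the p53-induced ribonucleotide reductase subunit, at 24.8 ± 1.801 and 23.5 ± 5.06 CPM (adjusted p = 0.827 and 0.802). By DESeq2 and limma-voom 0 of these 4 were called, and 1, Ddb2, had an unadjusted p under 0.05. Of all genes tested 15.8% were higher at that threshold.

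Separation of the genotypes was read against the whole table. Every deleted library exceeded every intact one for Sesn1, Ddit4l, Gadd45a and Ddb2, and fell short of every intact one for Sesn2, Eda2r, Aen and Trp53inp1, 4 and 4 of 24. The same held for 10.7% and 9.21% of all genes tested (19.9% together). In the checkpoint and repair block only Chek1 separated, below.

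Most checkpoint and repair genes lay lower in deleted replicates 1 and 4 than in any intact library. Of the 15 genes, 13 lay below the intact range in deleted replicate 1 and 12 in deleted replicate 4, against 35.8% and 37.8% of all genes tested. In deleted replicate 3 the number was 7, against 32.4% of all genes tested. In deleted replicate 2 it was 3, and 6 genes lay above the range instead (of all genes, 35.6% lay below and 36.8% above). For the p53 block the numbers below the range in deleted replicates 1 to 4 were 14, 11, 6 and 7 of 24. Above the range they were 6, 10, 10 and 10. Of all genes tested 35.8%, 35.6%, 32.4% and 37.8% lay below and 39.4%, 36.8%, 33.9% and 37.1% above.

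Genes of S phase and of mitosis followed the same split of libraries. All 18 listed S phase genes and all 18 listed G2/M genes lay below the intact range in deleted replicates 1 and 4. In deleted replicates 2 and 3 the numbers were 4 and 10 for S phase and 7 and 2 for G2/M. Summed S phase levels were 2642 to 2876 CPM in intact libraries and 1499, 2796, 2537 and 1494 CPM in deleted replicates 1 to 4. The S phase list had 0 higher calls and 1 lower, Pola1 (log2 fold change -0.73 ± 0.18, adjusted p = 0.0452). The G2/M list had 0 calls. Of all genes tested 5.10% were called higher and 2.80% lower. The median log2 fold changes of the S phase and G2/M lists were -0.38 and -0.33. In all 4 deleted libraries, 4 of 18 S phase genes and 1 of 18 G2/M genes lay below every intact library, against 9.21% of all genes tested. Deleted replicates 1 and 4 were also those with the highest mitochondrial share of counts. The part of proliferation and of the mitochondrial share in the levels of checkpoint and repair genes was not tested.

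**Figure D4:**
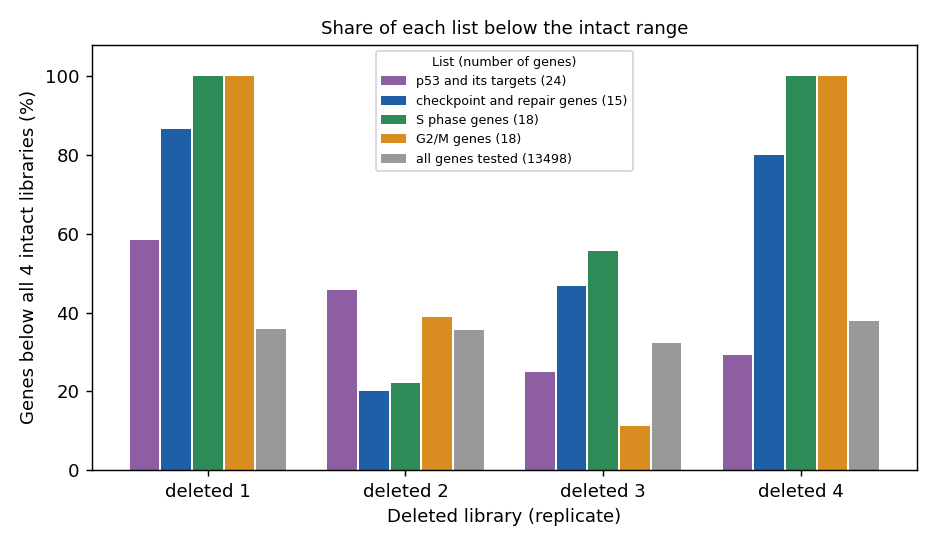
Percentage of each list's genes that lie below all 4 intact libraries (vertical axis) in each deleted library (horizontal axis), with all 13498 tested genes in grey. S phase and G2/M genes reach 100% in deleted replicates 1 and 4, where the checkpoint and repair block reaches 86.7% and 80.0%, while the p53 block ranges from 25.0% to 58.3%. Genes above the intact range are not drawn.

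Chek1 (Entrez 12649, chromosome 9, 36708482 to 36726658) encodes the effector kinase of the ATR checkpoint at replication forks. It stood at 45.8, 55.8, 52.9 and 53.7 CPM in intact and at 23.5, 37.9, 32.8 and 28.3 CPM in deleted libraries, with no overlap. Chek1 was below the intact range also in deleted replicate 2, where 4 of 18 S phase and 7 of 18 G2/M genes were. It fell 1.70-fold, from 52.0 ± 4.32 to 30.6 ± 6.16 CPM (log2 fold change -0.77 ± 0.16, adjusted p = 0.0271). The call also ended without deleted replicate 4 and with litter as a random block, and was made in 15 of 22 settings. It held without the deleted libraries of high mitochondrial share and without those with Kat7 reads.

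The other 3 kinase genes were not called. Chek2, which ATM activates, stood at 27.0, 27.5, 30.4 and 27.6 CPM in intact and at 22.4, 39.1, 25.9 and 35.7 CPM in deleted libraries, on both sides of the intact range (log2 fold change 0.13 ± 0.18, adjusted p = 0.697). Atm, the kinase of double-strand breaks, stood at 118 ± 15.6 and 89.4 ± 14.9 CPM (-0.40 ± 0.15, adjusted p = 0.141). Atr, the kinase of stalled forks, stood at 63.4 ± 4.33 and 70.3 ± 17.4 CPM (0.15 ± 0.17, adjusted p = 0.622).

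The mediators and fork protectors were not called. Clspn (claspin), the adaptor through which ATR phosphorylates CHEK1, stood at 78.1, 72.9, 70.5 and 93.7 CPM in intact and at 48.5, 54.7, 75.1 and 43.8 CPM in deleted libraries, with deleted replicate 3 inside the intact range (log2 fold change -0.50 ± 0.18, adjusted p = 0.123). Without deleted replicate 3 it was called at -0.68 ± 0.15 (adjusted p = 0.0429). Timeless, which travels with the fork, stood at 71.9, 77.4, 68.2 and 94.8 CPM in intact and at 47.7, 74.5, 68.9 and 53.1 CPM in deleted libraries (-0.35 ± 0.17, adjusted p = 0.233). Deleted replicates 1 and 4 were the 2 lowest of the 8. Mdc1 and Trp53bp1, which assemble at double-strand breaks, stood at 57.9 ± 12.7 and 65.9 ± 24.4 CPM and at 100.1 ± 6.17 and 97.2 ± 22.1 CPM (adjusted p = 0.682 and 0.888). For Trp53bp1 22.1% of the exon bases are shared with Tubgcp4 on the opposite strand.

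Recombination and resection genes had fitted fold changes below 0 in 5 of 5 cases, against 45.0% of all genes, and 0 were called. At an unadjusted p under 0.05 the lower count was 1 (Blm), against 10.4% of all genes, and by DESeq2 and limma-voom it was 0. Brca1, a recombination mediator, stood at 90.02, 92.9, 88.8 and 104 CPM in intact and at 62.8, 130.5, 91.8 and 65.5 CPM in deleted libraries. Deleted replicate 2 was the highest of the 8 libraries and deleted replicates 1 and 4 the lowest, with a log2 fold change of -0.10 ± 0.23 (adjusted p = 0.813). For Exo1, the exonuclease of end resection, the highest and the 2 lowest libraries were the same, at 38.2, 82.0, 49.9 and 36.4 CPM in deleted replicates 1 to 4, against 60.5 to 79.4 CPM in intact libraries (-0.45 ± 0.25, adjusted p = 0.29). Blm, the helicase of Bloom syndrome, stood at 53.6 ± 6.87 and 35.9 ± 10.2 CPM (-0.58 ± 0.21, adjusted p = 0.119). Brca2, a recombination gene, stood at 63.6 ± 10.6 and 53.8 ± 11.6 CPM, and Rad51c, which acts in the same repair, at 13.0 ± 1.52 and 9.13 ± 3.00 CPM (adjusted p = 0.426 and 0.206). Without deleted replicate 2 the lower calls of the block were 4 (6.69% of all genes tested there were called lower and 9.14% higher), Chek1 with Atm (-0.51), Blm (-0.75) and Exo1 (-0.77), at adjusted p of 0.0187 to 0.0394 for those 3.

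Fancd2 and Fanci encode the partners that are ubiquitinated together in the Fanconi anaemia pathway of crosslink repair. Fancd2 stood at 53.3, 55.2, 57.5 and 57.8 CPM in intact and at 39.9, 59.5, 56.5 and 31.6 CPM in deleted libraries. Fanci, the most abundant gene of the block per length, stood at 82.1, 75.6, 89.6 and 85.1 CPM in intact and at 51.8, 79.7, 88.3 and 55.4 CPM in deleted libraries. In both, deleted replicates 1 and 4 lay below every intact library and deleted replicates 2 and 3 among or just above them. Their log2 fold changes were -0.26 ± 0.20 and -0.27 ± 0.18 (adjusted p = 0.441 and 0.375), and by DESeq2, limma-voom or an unadjusted p under 0.05 neither passed. Fanci shares 13.4% of its exon bases with Polg on the opposite strand.

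Further genes of both pathways were taken from separate lists. Of 40 other p53 pathway genes, among them Bax, Bbc3, Fas, Mdm4 and Ppm1d, 36 were tested, 1 was called higher and 0 lower, with a median log2 fold change of -0.09. At an unadjusted p under 0.05 the counts were 4 higher and 8 lower, by DESeq2 2 and 5, and by limma-voom 0 and 0. The called gene was Def6. It stood at 1.50, 1.55, 1.32 and 1.22 CPM in intact and at 1.78, 3.86, 3.90 and 4.09 CPM in deleted libraries (1.28 ± 0.32, adjusted p = 0.0471), on 21 to 71 reads a library, and was called in 8 of 22 settings. Of 55 other checkpoint and repair genes, among them Palb2, Topbp1 and Tipin, 0 were called in either direction. There the counts at an unadjusted p under 0.05 were 4 higher and 7 lower, by DESeq2 1 and 3 and by limma-voom 0 and 0, with a median of -0.08. For edgeR calls, these lists and the 2 blocks are read against the same background of 5.10% higher and 2.80% lower. Without adjustment the background was 15.8% and 10.4% of all genes. For DESeq2 it was 8.63% and 5.80%, and for limma-voom 4.38% and 3.49%.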

How the data were processed

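The deposited tables held unnormalized whole-number counts for 27179 Entrez gene identifiers. The 8 per-sample files held the same values as the joint table. The submitters' processing notes name featureCounts, mm10 and CASAVA 1.8.2. The aligner and strand setting are not given in the sources used here. Per the labels' protocols, polyadenylated RNA was read as 100 bp single-end reads. RefSeq (GRCm38.p6) gave symbols to 25275 identifiers.

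The test was the quasi-likelihood F test of edgeR 4.0.16 (R 4.3.3), with filterByExpr (minimum count 10), TMM and robust dispersions, 4 against 4 libraries with no covariate. Fold changes use a prior count of 0.125. Alternatives used limma 3.58.1, DESeq2 1.42.0, other scalings and filters, littermates, a replicate block, and left-out libraries. On simulated counts for 13337 genes, the test called 38.0% of the genes planted with a 2-fold change and 80.8% at 4-fold. The simulation gave both groups the same dispersion for each gene and planted changes only in genes above a minimum mean count. The real deleted libraries varied more than the intact ones, so these rates need not hold for the real data. Replicates are separate fetuses; the closest pair of libraries in a group differed by 12.8 times the sampling variance, so none was a duplicate. Members, lists and alternatives were chosen with earlier results of these data known. Genes given in every library were Trp53, Cdkn1a, Mdm2, called or non-overlapping genes, the 3 most abundant per block, and those with SDs differing over 5 times; others given so were chosen after their values were seen.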

Additional observations from a re-analysis of the deposited data

Results flagged for a closer look

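In 2 of 82 groups of 4 libraries one value stood apart from the other 3 by Dixon's criterion, which chance alone exceeds in about 1 in 20 groups. Sesn2 stood at 135.3 CPM in intact replicate 2, against 115.6 to 117.3 CPM in the other intact libraries. Def6 stood at 1.775 CPM in deleted replicate 1, against 3.86 to 4.09 CPM in the other deleted libraries.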

How the results depend on the processing

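The direction of all 6 calls held in all 21 alternatives. Of 13498 genes 1066 were called. The number was 673 with total-count scaling, 2197 with DESeq2, 2283 with limma-voom and sample weights, 414 with litter as a random block, 193 with littermates summed and 2299 without the deleted libraries with Kat7 reads. Leaving out 1 library gave 189 to 2182. In the p53 block the 2 higher calls became 1 with total counts, limma-voom, the litter block or no filter on low counts, 4 with DESeq2 or without the libraries with Kat7 reads, 0 with littermates summed and 0 to 5 with 1 library left out. The 3 lower calls became 1 with the litter block or without the deleted libraries of high mitochondrial share, 0 with littermates summed and 0 to 3 with 1 library left out. The 1 lower call among checkpoint and repair genes became 0 with the litter block or littermates summed, 3 without the libraries with Kat7 reads and 0 to 4 with 1 library left out.

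With the replicate number as a block 319 genes were called, with 0 higher and 0 lower calls in the p53 block and 1 lower call among checkpoint genes. Deviations of same-numbered libraries correlated at 0.0961, 0.221, 0.110 and 0.331, and intact replicates 1 and 3 correlated best with another number, so the numbers were not taken to pair the samples.

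Total-count scaling moved the median over all genes from 0.05 to -0.09 (log2) and the higher share of the calls from 64.5% to 45.9%. Log2 fold changes changed sign in 12 genes that were not called and in 0 that were. With total counts they were -0.104 for Trp53, -0.076 for Polk and -0.007 for Chek2. Trp53 gave -0.004 without mitochondrial transcripts, -0.01 with DESeq2, -0.008 with the litter block and -0.012 without a filter. With sample weights Gtse1 gave 0.138. With littermates summed Polk gave -0.022 and Trp53bp1 0.024. Without the high mitochondrial libraries Gtse1 gave 0.176, Plk2 0.064, Polk -0.086, Brca1 0.219, Fancd2 0.029 and Trp53bp1 0.055. Without the libraries with Kat7 reads Plk3 gave 0.113, Brca1 0.059, Mdc1 -0.027 and Trp53bp1 0.114. With 1 library left out the ranges were -0.054 to 0.124 for Trp53, -0.316 to 0.131 for Gtse1, -0.283 to 0.001 for Plk3, -0.105 to 0.166 for Polk, -0.234 to 0.018 for Rrm2b, -0.01 to 0.251 for Chek2, -0.016 to 0.256 for Atr, -0.356 to 0.029 for Brca1, -0.088 to 0.315 for Mdc1 and -0.215 to 0.033 for Trp53bp1. The causes were not tested. Of single-gene values under the alternatives 743 kept direction and side of the threshold, 63 lost and 21 gained a call. Genes near 1 CPM rest on few reads, 12 at the least for Gadd45b.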
